A study of Homo sapiens with 8 samples.

Results

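The genes described here were the solute carriers that H3122 cells expressed. Candidates were all genes whose single symbol in the platform's probe table begins with SLC and a digit, each read on whichever of its probe sets was brightest on average. Members were selected on that mean signal over the 8 arrays, which had to lie above 5.36 on the log2 scale, the median of all values in the table. This kept 203 of 369 solute carrier genes, out of 18132 genes with a single-symbol probe set. The choice used the mean level, so levels are given as a description and only differences between arrays are tested. The label of nutrient and ion carriers held for 198 of the 203. The other 5 are no carriers: SLC2A4RG (a regulator of SLC2A4), SLC4A1AP (kanadaptin), SLC7A6OS (a neighbour of SLC7A6 on the opposite strand), the long noncoding RNA SLC67A1-AS and the pseudogene SLC35E2A. They stayed in the counts over all 203 genes.

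H3122 is a lung adenocarcinoma cell line driven by an EML4-ALK fusion kinase, and crizotinib and ceritinib are inhibitors of ALK. The tested lines were the ceritinib-resistant derivatives H3122-LR2 (LR2), given 1000 nM crizotinib for 6 h, 1000 nM ceritinib for 6 h or no inhibitor, and H3122-LR3 (LR3), given ceritinib at the same dose and time or no inhibitor. Parental H3122 cells, given crizotinib, ceritinib or no inhibitor in the same way, were the reference. Each of these 8 conditions had 1 array and all lines shared the fusion. Whether LR2 and LR3 are single clones is not given in the sources used here. LR3 had no crizotinib array. With no repeat of a condition, p-values measure the spread between arrays around the fitted model.

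Solute carriers are membrane proteins that move nutrients, ions, metals and metabolites across the plasma membrane and across the membranes of mitochondria, lysosomes, the endoplasmic reticulum and the Golgi. Some form obligatory pairs, as SLC3A2 does with SLC7A5 to exchange large neutral amino acids and with SLC7A11 to import cystine in exchange for glutamate. Growth factor signalling and the ATF4 amino acid response are known to control several of the amino acid carriers.

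The median signal was 5.31 to 5.36 in 7 arrays and 5.46 in that of LR2 with ceritinib. Of the marker genes listed for lung adenocarcinoma epithelium, 8 of 8 were above the 5.36 floor in every array, the lowest being SFTPB at 5.40 to 5.58. The 6 fibroblast markers stayed at or below 5.16 in every array, and the 4 leukocyte markers that could be matched, of 5 listed, stayed at or below 4.89. Of 4 endothelial markers, CDH5 (6.11 to 6.43) and KDR (5.71 to 6.52) were above the floor in all arrays, PECAM1 was below it, and VWF lay at 5.21 to 5.70. The part of these markers in the differences below was not tested. In bulk RNA, fewer cells expressing a gene and less of its RNA in each cell cannot be told apart.

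A promoter window running from 250 bases before to 50 bases after the start of the gene was found for 173 of the 203 genes in a RefSeq table of build GRCh38.p14. It was searched on both strands for 3 motifs: the C/EBP-ATF response element bound by ATF4 (CARE, written TGATGNAAN), the E-box bound by MYC and related factors (CACGTG), and the FOXO element (GTAAACA). Among all 27305 promoters in that table, 3.67% held the CARE, 7.43% the E-box and 3.41% the FOXO letters. Among the 173 solute carrier windows these letters were in 8 (4.62%), 19 (11%) and 3 (1.73%). The 4 windows shown here belong to genes whose signal moved by at least 0.5 log2 units with both inhibitors in parental cells, as described further on, and are the windows in that group with a match. Capitals mark the matched letters. SLC7A1, a cationic amino acid carrier, has the CARE (chr13:29595639-29595938, minus strand). The phosphate carrier SLC20A1 (chr2:112645689-112645988, plus strand) has an E-box, as do the mitochondrial pyrimidine nucleotide carriers SLC25A33 (chr1:9539215-9539514, plus strand) and SLC25A36 (chr3:140941586-140941885, plus strand).
SLC7A1: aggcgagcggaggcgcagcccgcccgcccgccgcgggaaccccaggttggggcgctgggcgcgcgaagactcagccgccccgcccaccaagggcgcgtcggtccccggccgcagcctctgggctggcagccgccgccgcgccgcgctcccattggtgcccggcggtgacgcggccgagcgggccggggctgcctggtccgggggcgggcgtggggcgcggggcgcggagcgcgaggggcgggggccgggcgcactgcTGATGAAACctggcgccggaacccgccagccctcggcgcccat
SLC20A1: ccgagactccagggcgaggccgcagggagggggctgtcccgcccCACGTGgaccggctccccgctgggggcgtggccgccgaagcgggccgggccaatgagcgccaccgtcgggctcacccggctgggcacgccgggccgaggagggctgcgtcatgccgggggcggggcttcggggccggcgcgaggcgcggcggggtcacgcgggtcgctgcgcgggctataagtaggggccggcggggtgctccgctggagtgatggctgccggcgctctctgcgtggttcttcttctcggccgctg
SLC25A33: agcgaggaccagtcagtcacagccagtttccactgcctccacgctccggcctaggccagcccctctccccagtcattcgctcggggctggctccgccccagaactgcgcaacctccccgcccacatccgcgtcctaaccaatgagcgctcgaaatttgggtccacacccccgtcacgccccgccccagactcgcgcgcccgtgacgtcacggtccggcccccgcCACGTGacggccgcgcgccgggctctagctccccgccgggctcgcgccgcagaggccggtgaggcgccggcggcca
SLC25A36: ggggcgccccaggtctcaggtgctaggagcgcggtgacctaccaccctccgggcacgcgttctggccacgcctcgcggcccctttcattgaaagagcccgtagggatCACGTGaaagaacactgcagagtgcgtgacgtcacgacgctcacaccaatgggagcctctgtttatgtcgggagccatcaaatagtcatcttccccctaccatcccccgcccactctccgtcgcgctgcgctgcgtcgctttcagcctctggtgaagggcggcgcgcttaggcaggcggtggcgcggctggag
A match is a string of letters and not a shown binding site.

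The 203 genes fell into 8 substrate classes and the 5 names that are no carriers. The mitochondrial SLC25 and related carriers made up 35 genes, amino acid and peptide carriers 31, metal and heme carriers 27, carriers of lipids, choline, organic ions and other substrates 26, nucleotide sugar and acetyl-CoA carriers of the secretory pathway 23, sugar and monocarboxylate carriers 23, carriers of inorganic ions 22, and nucleoside and vitamin carriers 11. The class with the smallest share above the cut was the carriers of inorganic ions, with 22 of 59 candidates kept, whereas 35 of 46 mitochondrial candidates were kept. Mean log2 signals of the 203 ran up to 13.16 for SLC25A5, an ADP/ATP translocase of the inner mitochondrial membrane. The next highest were SLC25A3 (the mitochondrial phosphate carrier, 12.43), SLC39A1 (a zinc importer, 11.94), SLC3A2 (11.84), SLC7A11 (11.44), SLC7A5 (11.26), SLC38A2 (10.71) and SLC38A1 (10.70). Probe sets differ in how brightly they bind, so these signals do not rank the amounts of different transcripts. Just inside the cut lay SLC47A1 (5.48), SLC46A1 (5.45), SLC6A8 (5.42), SLC16A8 (5.38) and SLC4A3 (5.38), and just outside it SLC35C1 (5.36), SLC35G3 (5.35), SLC9A5 (5.33), SLC24A1 (5.31) and SLC6A17 (5.30). The lung phosphate carrier SLC34A2 (4.39) was among the 166 dimmer genes. All 203 genes entered the tests, and 18 of them were below the floor in at least 1 array.

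Most of these genes varied little over the 8 arrays. The median SD over arrays was 0.175 log2 units and the smallest 0.0373. The largest were 1.04 for SLC2A12 (GLUT12, a glucose transporter), 0.650 for SLC60A1 (earlier MFSD4A, a protein of the major facilitator family) and 0.563 for SLC25A32 (a mitochondrial folate carrier). SLC35D2 (0.554, a nucleotide sugar carrier of the Golgi) and SLC1A1 (0.542, a carrier of glutamate and aspartate) followed.

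LR2 cells differed from parental cells most in single carriers of several classes. SLC60A1, SLC25A32 and the lysosomal carrier SLC46A3 were brighter than in parental cells in every matched pair of arrays, and the glucose transporter SLC2A1 and the zinc importer SLC39A4 were dimmer. In limma's fit of line and agent over all arrays, 46 of 203 genes passed an adjusted p of 0.05 (Benjamini-Hochberg) and are named called here, beside 22.5% of the 10527 genes tested. Of these, 35 were higher in LR2, where 12.8% of all genes were higher, and 11 were lower, where 9.68% were. Class and list counts for LR2 below are to be read beside these shares, and no class was tested as a set. The median difference was 0.02 over the 203 genes and 0.02 over all genes, and 2 of the 46 reached 2-fold. The split of 35 higher and 11 lower became 31 and 24 after quantile normalization and 34 and 21 after centring each array on its median. Of all genes tested, 24.5% and 24.3% were called in these 2 settings. With 1 array left out at a time, the fewest calls came without the untreated LR2 array, 21, beside 12.5% of all genes.

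**Figure D1:**
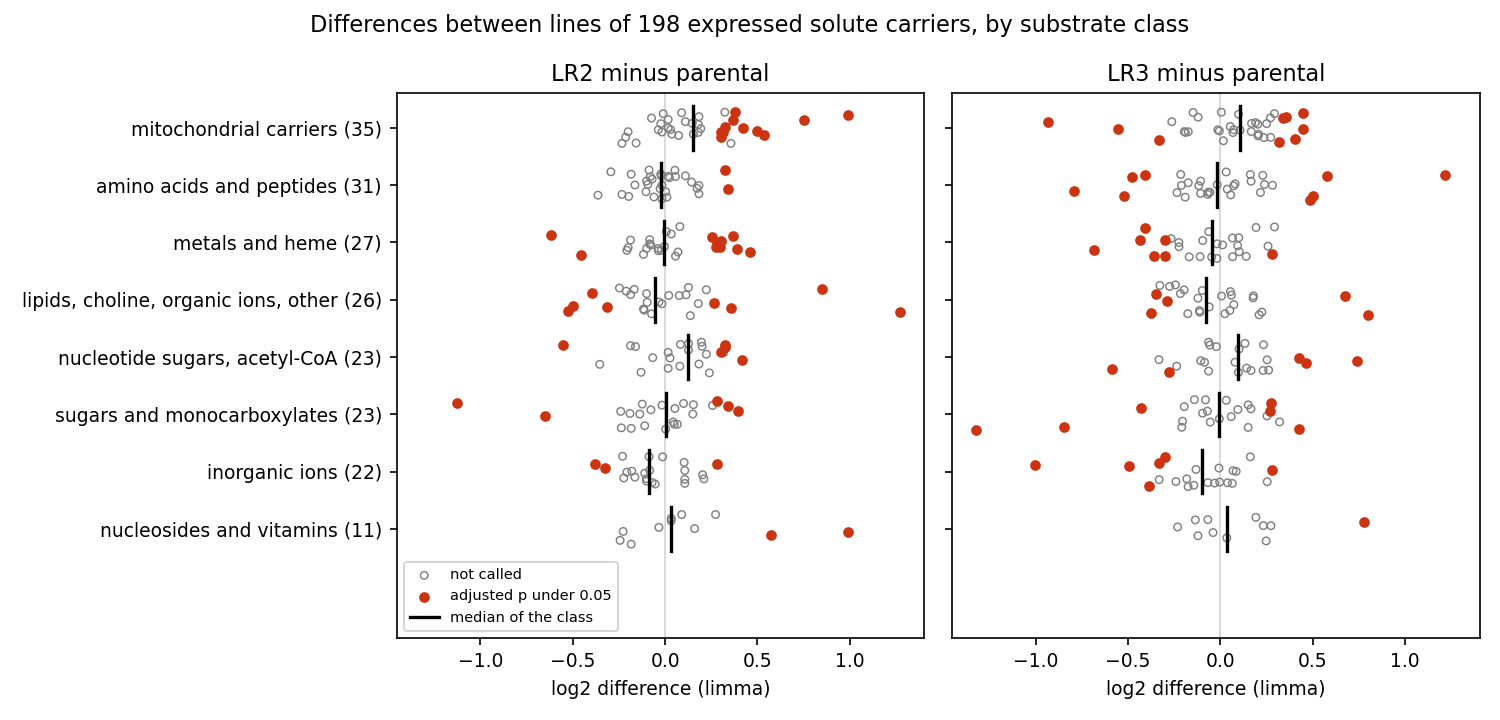
Log2 differences from limma between LR2 and parental cells (left) and LR3 and parental cells (right) for the 198 carriers, 1 point per gene, by substrate class with the number of genes. Filled points passed the adjusted p of 0.05, open points did not, and bars are class medians. In the mitochondrial class, 11 filled points lie above 0 for LR2 and none below, and for LR3 6 lie above and 3 below. Of all genes tested, 12.8% were called higher and 9.68% lower for LR2, and 9.53% and 12.1% for LR3.

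SLC60A1 had signals of 9.27 with crizotinib, 9.69 with ceritinib and 9.38 untreated in LR2 cells, against 8.12, 8.29 and 8.11 in the parental arrays in the same order. All LR2 arrays lay above all parental arrays, and the difference was 1.27 ± 0.08 (SE; limma adjusted p = 6.78e-05). The LR3 arrays, at 8.34 with ceritinib and 8.24 untreated, lay close to the parental ones.

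Mitochondrial carriers counted 11 higher and 0 lower of 35 in LR2, beside 12.8% and 9.68% of all genes, with a median difference of 0.15. The counts were 10 higher and 2 lower after quantile normalization and 11 and 1 after centring. SLC25A32 had 9.18, 9.63 and 9.87 in LR2 cells with crizotinib, with ceritinib and untreated, against 8.26, 8.34 and 9.11 in parental cells. Its groups did not overlap, although the LR2 crizotinib array and the untreated parental array were close. The difference was 0.99 ± 0.10 (SE; limma adjusted p = 0.000745). SLC25A29, which carries basic amino acids into the matrix, had 6.41, 6.81 and 6.54 in LR2 cells, against 5.91, 5.78 and 5.81 in parental cells. It rose by 0.75 ± 0.10 (SE; limma adjusted p = 0.00238). Both mitoferrins, which import iron for heme and iron-sulfur clusters, rose in LR2: SLC25A28 by 0.53 ± 0.09 and SLC25A37 by 0.38 ± 0.08 (SE; limma adjusted p = 0.00436 and 0.0111). The aspartate-glutamate carrier SLC25A12 rose by 0.50 ± 0.07 (adjusted p = 0.00264). The other 6 that rose, by 0.30 to 0.42, were SLC25A10 (the dicarboxylate carrier), SLC25A14, SLC25A16, SLC25A22 (a glutamate carrier), SLC25A23 (an ATP-magnesium and phosphate carrier) and SLC25A43.

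Metal carriers counted 8 higher and 2 lower of 27 in LR2, beside 12.8% and 9.68% of all genes, and their median was 0.00. The copper importer SLC31A1 had 8.88, 8.96 and 8.97 in LR2 arrays with crizotinib, with ceritinib and untreated, against 8.64, 8.54 and 8.52 in parental arrays. It rose by 0.37 ± 0.08 (SE; limma adjusted p = 0.0138). The zinc exporter SLC30A1 rose by 0.46 ± 0.09 and the magnesium carrier SLC41A2 by 0.39 ± 0.09, while the zinc importers SLC39A6, SLC39A7, SLC39A8 and SLC39A11 and the iron importer SLC11A2 rose by 0.25 to 0.30. SLC39A4, the zinc importer that takes up zinc in the intestine, moved the other way, with 7.86, 8.21 and 8.06 in LR2 arrays, against 8.57, 8.61 and 8.80 in parental arrays. Its groups did not overlap and it fell by 0.62 ± 0.08 (SE; limma adjusted p = 0.00233). A further zinc carrier, SLC39A9, fell by 0.45 ± 0.07. Of 6 genes tested among the metallothioneins, which bind metals, and their activator MTF1, 2 were higher in LR2 (MT1X and MT2A) and 1 lower (MT1F). For MT2A, 1 of 2 probe sets ran the other way.

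The glucose transporter SLC2A1 was called lower in LR2. SLC2A1, the widely expressed glucose transporter GLUT1, had 8.85, 9.12 and 9.20 in LR2 cells with crizotinib, with ceritinib and untreated, against 9.64, 9.52 and 9.96 in parental cells. Every LR2 array lay below every parental array, and the difference was -0.65 ± 0.09 (SE; limma adjusted p = 0.00241). SLC2A12 had 5.92, 5.15 and 4.92 in LR2 cells, against 7.44, 6.83 and 5.10 in parental cells. It was above the floor in 3 arrays only, the inhibitor-treated parental arrays and the LR2 crizotinib array, and it entered the genes described here and the test through them, so its values are given as a description. The groups overlapped, and the fitted -1.13, counted among the 11 lower genes and among those that reached 2-fold, is no exact size. That call (limma adjusted p = 0.0165) was lost in 5 of 16 alternative settings, among them leaving out the parental crizotinib, the LR2 crizotinib or the LR2 ceritinib array. Leaving out either crizotinib array is the same fit as leaving out both, so that tally counts 1 fit repeatedly. Over the 23 sugar and monocarboxylate carriers, 3 were higher and 2 lower in LR2, SLC2A12 being 1 of the 2. The 3 were SLC16A5 (0.39 ± 0.07), SLC37A1 (0.34 ± 0.08) and the monocarboxylate carrier SLC16A7 (0.28 ± 0.07). BSG, the chaperone that monocarboxylate carriers need to reach the cell surface, fell by 0.36 ± 0.07 in LR2 (adjusted p = 0.0117). It was the called member among 4 chaperones and lactate dehydrogenase genes tested.

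SLC46A3 had 6.25, 6.47 and 6.07 in LR2 cells with crizotinib, with ceritinib and untreated, against 5.56, 5.38 and 4.88 in parental cells, and rose by 0.99 ± 0.12 (SE; limma adjusted p = 0.00141). Its untreated parental array was below the floor, and it passed the cut through the resistant-line arrays. The LR2 difference of SLC46A3 is therefore a description and no exact size. The equilibrative nucleoside transporter SLC29A2 rose by 0.57 ± 0.11 (adjusted p = 0.00849), and by 0.23 when all its probe sets were averaged. These were the 2 called genes of the 11 nucleoside and vitamin carriers. SLC22A23, an organic ion carrier with no settled substrate, had 8.86, 8.62 and 8.45 in LR2 cells, against 8.05, 7.85 and 7.49 in parental cells. It rose by 0.85 ± 0.07 (SE; limma adjusted p = 0.000317), and by 0.53 over the mean of its probe sets. Within its class of 26, 4 genes were higher and 4 lower in LR2. The lower ones were the fatty acid transport proteins SLC27A3 (-0.52 ± 0.08) and SLC27A5 (-0.50 ± 0.08), SLC67A1 (earlier SLC22A18, -0.40 ± 0.07) and the choline-like carrier SLC44A5 (-0.31 ± 0.09).

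Amino acid carriers moved little in LR2. Of 31, 2 were called, both higher: SLC7A6, a cationic and neutral amino acid exchanger, by 0.32 ± 0.07 and the glycine carrier SLC6A9 by 0.34 ± 0.10. The SLC6A9 call (adjusted p = 0.0476) was lost in 12 of 15 alternatives, including each of the 8 that left out 1 array. These are not all separate fits. Leaving out either crizotinib array gives the fit without both, since LR3 has none. Leaving out either LR3 array gives 1 and the same fit for LR2 against parental cells. The large neutral amino acid exchanger SLC7A5 differed by -0.03 (adjusted p = 0.841), its partner SLC3A2 by 0.06 (0.701), the cystine carrier SLC7A11 by -0.18 (0.337), the glutamine carrier SLC1A5 by 0.14 (0.374) and the neutral amino acid carrier SLC38A2 by -0.23 (0.107). None of these 5 passed the test. SLC7A11 was called in 1 of 18 alternatives, at -0.37 without the parental ceritinib array (limma adjusted p = 0.0190). The signs for SLC7A5 and SLC3A2 changed when single arrays were left out. Of 22 inorganic ion carriers, 1 was higher and 2 were lower in LR2. The lower ones were the sulfate carrier SLC26A2 (-0.38 ± 0.09) and SLC9D1 (earlier TMCO3, -0.33 ± 0.07). The higher one was SLC4A3, with every parental array under the floor, so it was at least 1.13-fold higher against that floor. It passed the cut through the resistant lines, and its call (limma adjusted p = 0.0479) was lost in 13 of 16 alternatives. Of 23 nucleotide sugar carriers, 4 were higher and 1 was lower. SLC35A1, which brings CMP-sialic acid into the Golgi, rose by 0.32 ± 0.07, SLC35F3 by 0.42 ± 0.07, and the lower gene was SLC33A2 (earlier MFSD3, -0.55 ± 0.08). The untreated and the ceritinib parental arrays of SLC35F3 were below the floor, and it passed the cut through the resistant-line arrays. Its 0.42 is therefore a description and no exact size. The LR2 calls of SLC35A1, SLC35F3, SLC26A2, SLC9D1, SLC16A5, SLC37A1, SLC41A2 and SLC67A1 were lost without either crizotinib array, that of SLC30A1 without the untreated LR2 array (0.41), and that of SLC7A6 without the LR2 ceritinib array or either untreated array (0.27 to 0.31).

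In LR3 cells, the glutamate and aspartate carrier SLC1A1 and the choline-like carrier SLC44A4 were higher than in parental cells, and the bicarbonate carrier SLC4A7, the mitochondrial carrier SLC25A21, the taurine carrier SLC6A6 and the inositol carrier SLC2A13 were lower. In the same fit, 47 of 203 genes were called between LR3 and parental cells, beside 21.6% of all genes tested. There were 21 higher, beside 9.53% of all genes, and 26 lower, beside 12.1%. Class and list counts for LR3 below are to be read beside these shares. The median difference was 0.00 over the 203 genes and 0.01 over all genes, and 3 calls reached 2-fold, of SLC1A1 and of SLC4A7 and SLC2A12, whose LR3 arrays were both under the floor. The split of 21 higher and 26 lower became 29 and 30 after quantile normalization and 38 and 25 after centring. Without the LR3 ceritinib array 14 genes were called, and without the untreated LR3 array 16. This comparison uses the same parental arrays as the one of LR2, so likeness between the 2 sets of values is not a result.

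**Figure D2:**
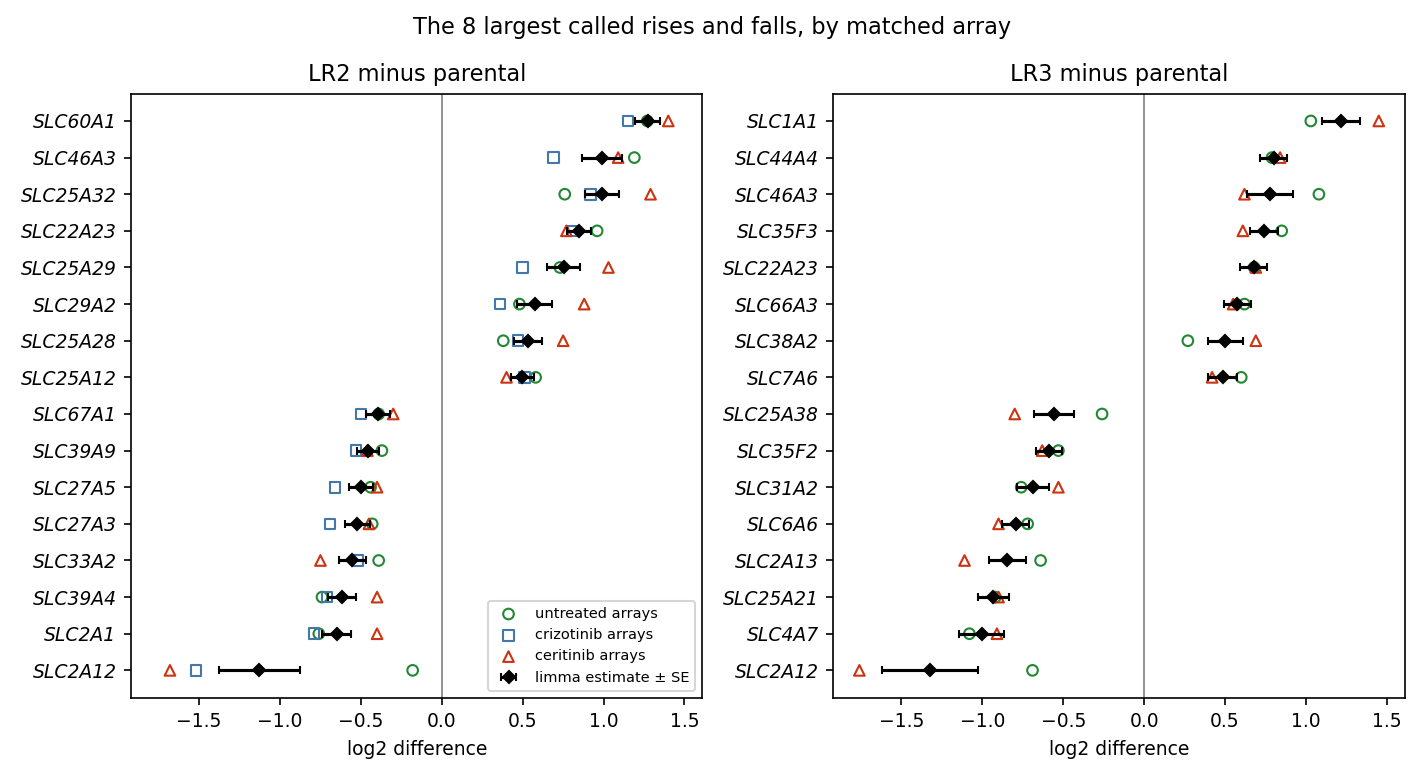
Log2 differences of the 8 largest called rises and 8 largest called falls in LR2 (left) and LR3 (right) against parental cells. Open symbols are the differences between single arrays with the same agent, and diamonds with bars are the limma estimate ± SE. For SLC2A12, which has arrays under the floor in every line, the untreated arrays differ by much less than the inhibitor-treated ones, while for SLC60A1 and SLC44A4 the symbols lie close together.

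SLC1A1 had 7.97 with ceritinib and 7.37 untreated in LR3 cells, against 6.75 with crizotinib, 6.52 with ceritinib and 6.34 untreated in parental cells. LR2 cells, at 6.52 to 6.76, lay in the parental range or just beside it. The difference between LR3 and parental cells was 1.22 ± 0.12 (SE; limma adjusted p = 0.000609), the largest rise among the 203 genes. SLC38A2, a sodium-coupled carrier of small neutral amino acids, had 11.26 and 11.09 in LR3 cells with ceritinib and untreated, against 10.62, 10.57 and 10.82 in parental cells with crizotinib, with ceritinib and untreated. It rose by 0.50 ± 0.11 (SE; limma adjusted p = 0.0153). That call was lost without the LR3 ceritinib array, where the value was 0.36. SLC66A3 (0.58 ± 0.08) and SLC7A6 (0.48 ± 0.09) also rose. SLC6A6 had 9.47 and 9.35 in LR3 cells, against 10.34, 10.37 and 10.07 in parental cells, and fell by 0.79 ± 0.08 (limma adjusted p = 0.000915). Over the mean of its 5 probe sets the fall was -0.48. The other falls in this class were the creatine carrier SLC6A8 (-0.52, with both LR3 arrays under the floor and so at least 1.25-fold lower against it) and the proton-coupled amino acid carriers SLC36A4 (-0.48 ± 0.12) and SLC36A1 (-0.41 ± 0.11), which makes 4 higher and 4 lower of 31. The SLC6A8 call was lost in 10 of 15 alternatives, and its value was -0.29 without the parental ceritinib array and -0.35 without the LR3 ceritinib array. SLC7A5 differed by 0.28 (adjusted p = 0.0593, and called in 4 of 18 alternatives at 0.28 to 0.34), SLC3A2 by 0.24 (0.150), SLC7A11 by 0.17 (0.467) and SLC1A5 by -0.07 (0.745).

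SLC4A7, a sodium-coupled bicarbonate importer that raises the pH of the cell, had 4.98 and 5.32 in LR3 cells with ceritinib and untreated, against 5.89, 5.89 and 6.40 in parental cells with crizotinib, with ceritinib and untreated. Both LR3 arrays were below the floor and all parental arrays above it. The fitted difference was -1.005 (limma adjusted p = 0.00271), which is no exact size, since the mean parental signal lay 0.70 above the floor and the LR3 signal at or under it, which makes SLC4A7 at least 1.62-fold lower in LR3 on that basis. Inorganic ion carriers as a class counted 1 higher and 5 lower of 22 in LR3, beside 9.53% and 12.1% of all genes, with a median of -0.10. The other lower genes were SLC26A2 (-0.49 ± 0.11), the mitochondrial sodium-calcium exchanger SLC8B1 (-0.39 ± 0.09), SLC12A8 (-0.33 ± 0.09) and SLC4A11 (-0.30 ± 0.08), and the higher one was the potassium-chloride cotransporter SLC12A7 (0.28 ± 0.08). The sodium-potassium-chloride cotransporter SLC12A2 did not pass the test (-0.33, adjusted p = 0.120). Of 5 sodium pump subunits and regulators tested, 1 was higher and 2 were lower in LR3, and 0 higher and 1 lower in LR2. FXYD5 was the higher one in LR3 (0.33 ± 0.08) and the lower one in LR2 (-0.40 ± 0.07).

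Metal carriers counted 1 higher and 6 lower of 27 in LR3, beside 9.53% and 12.1% of all genes. SLC31A2, a copper carrier of internal membranes, had 6.07 and 5.84 in LR3 cells, against 6.83, 6.60 and 6.60 in parental cells, and fell by 0.69 ± 0.10 (limma adjusted p = 0.00307). The zinc importers SLC39A10 (-0.41 ± 0.09), SLC39A14 (-0.36 ± 0.09) and SLC39A13 (-0.30 ± 0.08), the zinc exporter SLC30A1 (-0.44 ± 0.10) and SLC49A4 (-0.30 ± 0.09) fell, and SLC39A6 rose by 0.28 ± 0.08. The SLC30A1 difference in LR3 was -0.13 over the mean of both probe sets, -0.28 without the untreated LR3 array, and 0.17 when probe sets with a cross-hybridization suffix were left out. Its call was lost in 8 of 18 alternatives, these included.

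Mitochondrial carriers counted 6 higher and 3 lower of 35 in LR3, beside 9.53% and 12.1% of all genes. SLC25A21, which carries oxodicarboxylates, had 6.34 and 6.33 in LR3 cells, against 7.39, 7.24 and 7.25 in parental cells, and fell by 0.93 ± 0.09 (limma adjusted p = 0.000736). The glycine carrier SLC25A38 fell by 0.56 ± 0.12, with a value of -0.37 and no call without the LR3 ceritinib array. The citrate carrier SLC25A1 (0.32 ± 0.08), the oxoglutarate carrier SLC25A11 (0.34 ± 0.10), SLC25A10 (0.35 ± 0.08) and SLC25A28 (0.44 ± 0.10) were among the higher ones.

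Among the sugar carriers of LR3, SLC2A13 (a proton-coupled inositol carrier) had 5.86 and 5.91, against 6.81, 6.97 and 6.55 in parental cells, and fell by 0.84 ± 0.12 (limma adjusted p = 0.00254). The sodium-coupled inositol carrier SLC5A3 fell by 0.43 ± 0.11, and by 0.24 with no call without the LR3 ceritinib array. SLC2A12 had 5.07 and 4.41 in LR3 cells, against the 7.44, 6.83 and 5.10 of parental cells. Both LR3 arrays and the untreated parental array were under the floor, so the fitted -1.32 is no size and the values are a description. The call (limma adjusted p = 0.0178) was lost in 6 of 16 alternatives, leaving out either LR3 array, the parental crizotinib array or the LR2 crizotinib array included. Those that lack a crizotinib array are 1 and the same fit. SLC2A1 had 9.79 and 10.09 in LR3 cells, against 9.64, 9.52 and 9.96 in parental cells, and did not pass the test (0.17, adjusted p = 0.303). BSG, EMB and LDHA, 3 of the 4 monocarboxylate carrier chaperones and lactate dehydrogenase genes, were lower in LR3, BSG by -0.56 ± 0.09.

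SLC44A4 had 8.81 and 8.68 in LR3 cells with ceritinib and untreated, against 8.10, 7.97 and 7.89 in parental cells with crizotinib, with ceritinib and untreated. It rose by 0.80 ± 0.08 (SE; limma adjusted p = 0.000792), with no overlap between the groups. SLC46A3 (0.78 ± 0.14), SLC22A23 (0.68 ± 0.09) and SLC35F3 (0.74 ± 0.09) were called higher in LR3. The untreated parental arrays of SLC46A3 and SLC35F3 and the parental ceritinib array of SLC35F3 were below the floor. Both genes passed the cut through the resistant-line arrays. Their differences are a description and no exact sizes. For SLC22A23 the value over the mean of its probe sets was 0.31. At least 1 probe set had the opposite sign in LR3 for SLC22A23 (1 of 4), SLC2A13 (1 of 3), SLC35F2 (1 of 2) and SLC30A1 (1 of 2). SLC46A3 was not called without the untreated LR3 array (0.57). With no agent term in the fit, the LR3 calls of SLC35F3 (0.54, limma adjusted p = 0.240) and SLC22A23 (0.56, limma adjusted p = 0.0790) were lost. In the nucleotide sugar class, 3 genes were higher and 2 lower of 23, with SLC35B2, which supplies the sulfate donor PAPS to the Golgi, higher by 0.47 ± 0.08 and SLC35F2 lower by 0.59 ± 0.08. The LR3 calls of SLC35B2, SLC39A10, SLC39A14, SLC25A28 and SLC8B1 were lost without either LR3 array, that of SLC26A2 without the LR3 ceritinib array (-0.36), that of SLC7A6 without the untreated LR3 array (0.41), and that of SLC12A8 in 13 of 16 alternatives.

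The resistant lines were also set against each other. LR3 had more SLC1A1, SLC2A1, SLC38A2 and SLC39A4 signal than LR2, and less SLC4A7, SLC60A1, SLC25A29 and SLC30A1. In this comparison 44 of 203 genes were called, beside 19.6% of all genes, with 18 higher in LR3 (7.29% of all genes) and 26 lower (12.3%). The split of 18 and 26 became 31 and 26 after quantile normalization and 33 and 24 after centring, so the balance of direction depended on the scaling. Of all genes, 22% and 22.7% were called in these settings. Fewer genes were called without either LR3 array, among the 203 and among all genes tested alike. SLC2A1 was 0.82 ± 0.11 higher in LR3 than in LR2 (SE; limma adjusted p = 0.00191), and its LR3 arrays (9.79 and 10.09) all lay above its LR2 arrays (8.85 to 9.20). The values for SLC38A2 were 0.73 ± 0.11 and for SLC39A4 0.72 ± 0.10. SLC60A1 was lower by 1.21 ± 0.09 (SE; limma adjusted p = 0.000183). SLC4A7, with both LR3 arrays under the floor, was at least 1.88-fold lower in LR3 against that floor (limma adjusted p = 0.00121).

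Mitochondrial carriers counted 0 higher and 7 lower of 35 in LR3 against LR2, beside 7.29% and 12.3% of all genes. The counts became 2 and 7 after quantile normalization and 3 and 7 after centring. SLC25A29 had 5.57 and 5.62 in LR3 arrays and 6.41 to 6.81 in LR2 arrays, a difference of -1.02 ± 0.12 (limma adjusted p = 0.00145). SLC25A21 (-0.73 ± 0.09), SLC25A32 (-0.70 ± 0.12) and SLC25A38 (-0.63 ± 0.12) were next. Both copper carriers were lower in LR3 than in LR2. SLC31A1 had 8.20 and 8.39 in LR3 arrays and 8.88 to 8.97 in LR2 arrays (-0.64 ± 0.09, limma adjusted p = 0.00317), and SLC31A2 differed by -0.57 ± 0.10. SLC30A1 was lower by 0.90 ± 0.10, with 7.64 and 7.47 in LR3 arrays and 8.19 to 8.53 in LR2 arrays. Without the suffixed probe sets it was lower by 0.50, with no call. SLC35A1 was lower by 0.60 ± 0.08, SLC35G1 by 0.63 ± 0.10 and the nucleoside transporter SLC29A2 by 0.64 ± 0.13. For SLC29A2 the value over the mean of its probe sets was -0.20, without a call, and 2 of 3 probe sets ran the other way. SLC12A7 was higher by 0.50 ± 0.08 on its brightest probe set and by 0.06 over the mean of its probe sets, again without a call. Without the untreated LR3 array, SLC25A32 (-0.62), SLC31A2 (-0.49), SLC35G1 (-0.60), SLC29A2 (-0.53) and SLC12A7 (0.44) were not called, and without the LR3 ceritinib array SLC25A38 (-0.44) was not.

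Inhibitor treatment was compared with no inhibitor in each line. With crizotinib and ceritinib taken as 1 condition, limma called 0 of 203 genes in parental cells, 0 in LR2 and 0 in LR3, as it called 0 of all 10527 genes in each (0%). The spread in this fit came only from the differences between the crizotinib and ceritinib arrays in parental cells and in LR2. Any difference between the agents therefore counted as spread, and 0 calls do not show that no gene responded. At an unadjusted p under 0.05 there were 34 of the 203 (16.7%) in parental cells, beside 17.6% of all genes tested, 15 (7.39%) in LR2, beside 9.64%, and 4 (1.97%) in LR3, beside 4.74%. For the difference of the responses between each resistant line and parental cells, limma again called 0 genes, with 3 at an unadjusted p under 0.05 for LR2 (1.48%, beside 2.38% of all genes) and 5 for LR3 (2.46%, beside 4.8%). An additive fit of line and inhibitor over all arrays called 5 of the 203 (3.28% of all genes): SLC29A3 (0.47 ± 0.09), SLC35F3 (0.57 ± 0.12) and the lysosomal arginine sensor SLC38A9 (0.40 ± 0.08) higher, and SLC25A32 (-0.56 ± 0.12) and SLC39A14 (-0.29 ± 0.06) lower with an inhibitor. What follows are differences between single arrays, described with no test, for genes that moved by at least 0.5 log2 units the same way with both inhibitors in parental cells. That limit was chosen after values had been seen, and both differences share the untreated parental array.

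There were 9 of 203 genes at least 0.5 lower with both inhibitors in parental cells, beside 308 of all genes tested (2.93%). They were 2 of 31 amino acid carriers, 2 of 35 mitochondrial carriers, 2 of 23 nucleotide sugar carriers, 2 of 22 inorganic ion carriers and 1 of 11 nucleoside and vitamin carriers. SLC20A1, which imports inorganic phosphate, had 9.55 with crizotinib and 9.13 with ceritinib, against 10.26 untreated. In the same order, SLC25A32 had 8.26 and 8.34, against 9.11. The cystine carrier SLC7A11 had 11.17 and 11.18, against 11.93 untreated, and the arginine and lysine carrier SLC7A1 had 8.38 and 8.29, against 9.06. All 4 lay at least 0.68 below the untreated array with either inhibitor. The remaining 5 were SLC25A33, the thiamine carrier SLC19A2, SLC4A7, SLC35G1 and SLC35G2, with differences of -0.50 to -0.82. In limma's fit the parental response of SLC7A11 was -0.76 (adjusted p = 0.166) and that of SLC20A1 was -0.92 (adjusted p = 0.158).

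**Figure D3:**
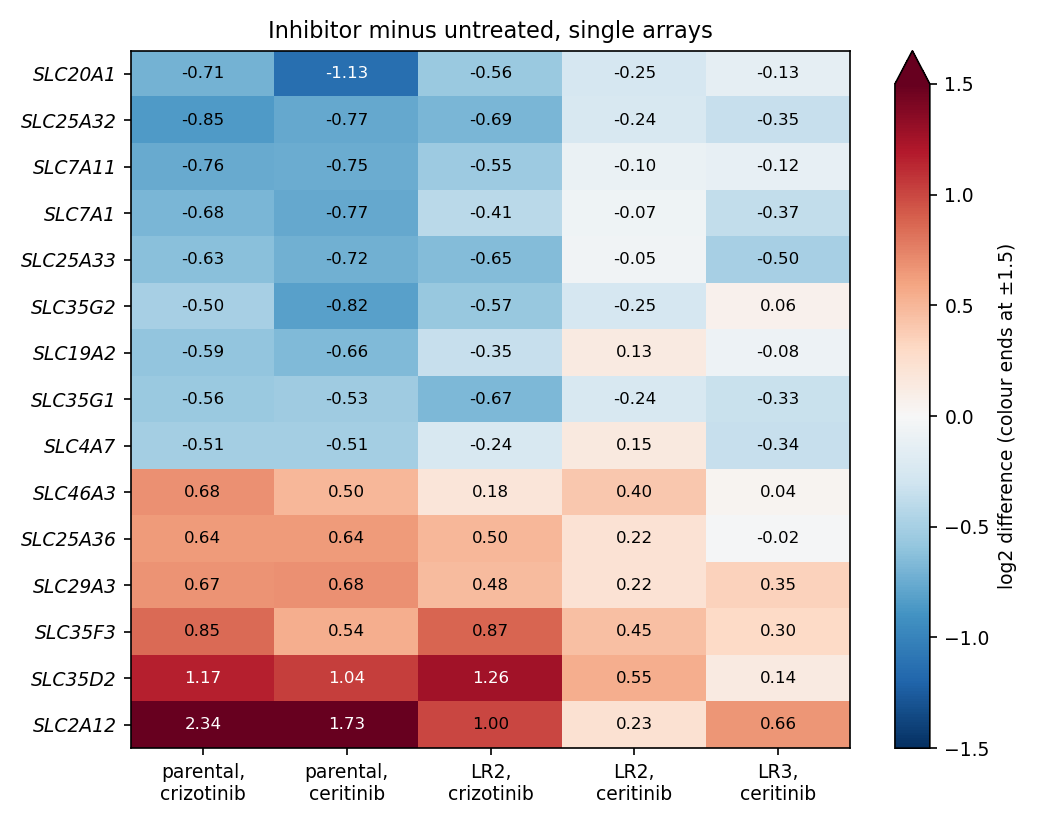
Differences in log2 signal, inhibitor minus untreated array of the same line, for the 15 solute carrier genes that moved by at least 0.5 the same way with both inhibitors in parental cells. Each cell is a difference between 2 single arrays. The LR2 crizotinib column follows the parental ones, with SLC7A11 at -0.55, while the LR2 and LR3 ceritinib columns are paler, with SLC7A11 at -0.10 and -0.12.

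In LR2 cells the same 9 genes were lower with crizotinib and moved little with ceritinib. With crizotinib their median difference was -0.56 and 6 of 9 were at least 0.5 lower, beside 3.39% of all genes. With ceritinib the median was -0.10 and 0 of 9 passed 0.5, beside 0.209% of all genes. In LR3 with ceritinib the median was -0.33 and 1 of 9, SLC25A33 at -0.50, reached the limit, beside 0.446% of all genes. SLC7A11 had 10.91 with crizotinib and 11.36 with ceritinib in LR2, against 11.46 untreated, and 11.68 with ceritinib in LR3, against 11.80 untreated. For SLC20A1 the LR2 values were 9.56 and 9.87, against 10.12, and the LR3 value was 9.67, against 9.80. The 9 were picked for falling in parental cells, so the like set is the 308 genes picked the same way, which gave the same order. Of the 308 genes lower with both inhibitors in parental cells, 238 (77.3%) were at least 0.5 lower with crizotinib in LR2, 12 (3.9%) with ceritinib in LR2 and 19 (6.17%) with ceritinib in LR3. The LR2 ceritinib array also lay 0.10 above the untreated LR2 array at the median of all genes.

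**Figure D4:**
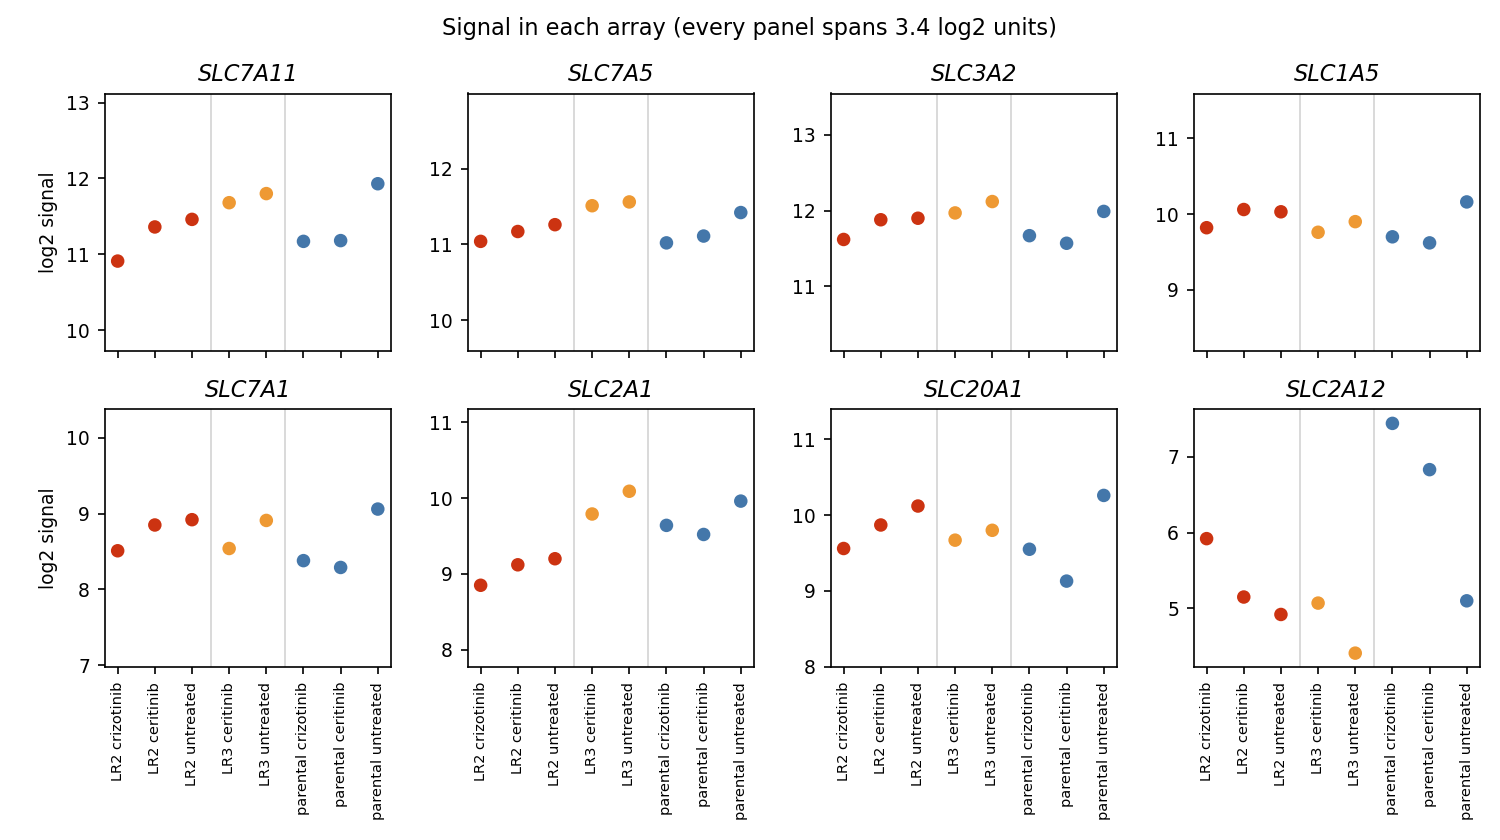
Log2 signal in each of the 8 arrays for 8 solute carriers, grouped as LR2 (red), LR3 (orange) and parental (blue), with every panel spanning the same range. Each point is 1 array. SLC7A11, SLC7A1 and SLC20A1 are highest in the untreated array of the parental line, SLC2A1 is lowest in the LR2 arrays, and SLC2A12 is brightest in the parental arrays with an inhibitor.

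Other carriers of amino acids moved less. SLC1A5 lay just outside the limit, with -0.46 with crizotinib and -0.54 with ceritinib in parental cells. SLC7A5 differed by -0.40 and -0.31 and SLC3A2 by -0.32 and -0.42. SLC38A2 differed by -0.20 and -0.25 in parental cells, while in LR2 it differed by 0.07 and 0.04 and in LR3, with ceritinib, by 0.17. SLC2A1 differed by -0.32 and -0.44 in parental cells. Among the partner lists, that of the ATF4 amino acid response and serine synthesis had 18 genes tested. Of these, 8 were at least 0.5 lower with both inhibitors in parental cells and 0 at least 0.5 higher, beside 2.93% and 3.52% of all genes. The lists were chosen with earlier results of these data known, so these counts are a description. The 8 lower genes were CHAC1 (-1.60 with crizotinib and -1.61 with ceritinib), TRIB3 (-1.56 and -1.44), SESN2, PSPH, ATF3, ASNS (asparagine synthetase), PSAT1 and CEBPG. The list of glutamine and glutamate enzymes had 1 gene of 4 tested that was lower in this way, the aspartate aminotransferase GOT1, and the other 3 lists had 0. The amino acid response list's median was -0.49 with crizotinib and -0.46 with ceritinib in parental cells, -0.25 and -0.06 in LR2, and -0.09 with ceritinib in LR3. In LR2, 5 of the 18 were at least 0.5 lower with crizotinib and 0 with ceritinib, beside 3.39% and 0.209% of all genes. In LR3 with ceritinib, 4 of the 18 were, beside 0.446% of all genes. The CARE letters were in 1 of the 7 windows available for the 9 lower carriers, the SLC7A1 window printed above, and the E-box in 2 of 7. With so few windows, the shares of all promoters are the only comparison given.

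Carriers that were higher with both inhibitors in parental cells numbered 6 of 203, beside 371 of all genes tested (3.52%). SLC2A12 had 7.44 with crizotinib and 6.83 with ceritinib in parental cells, against 5.10 untreated, below the floor. SLC35D2 had 8.09 and 7.96, against 6.92. The lysosomal nucleoside transporter SLC29A3 had 7.36 and 7.37, against 6.69. SLC25A36 differed by 0.64 with either inhibitor, SLC35F3 by 0.85 and 0.54, and SLC46A3 by 0.68 and 0.50. The untreated arrays of SLC46A3 and SLC35F3 were below the floor in parental cells, at 4.88 and 4.75. The parental ceritinib array of SLC35F3 was below it as well.

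In LR2 with crizotinib the 6 had a median of 0.69 and 4 of 6 were at least 0.5 higher, beside 3.55% of all genes. With ceritinib in LR2 the median was 0.32 and 1 of 6 reached the limit (SLC35D2 at 0.55), beside 1.86% of all genes. In LR3 with ceritinib the median was 0.22 and 1 of 6 reached it (SLC2A12 at 0.66, from a signal below the floor), beside 0.94% of all genes. SLC35D2 had 8.63 with crizotinib and 7.92 with ceritinib in LR2, against 7.37 untreated, and 7.39 with ceritinib in LR3, against 7.25 untreated. The set picked the same way as the 6 is the 371 genes higher with both inhibitors in parental cells. Of these 371, 216 (58.2%) were at least 0.5 higher with crizotinib in LR2, 60 (16.2%) with ceritinib in LR2 and 49 (13.2%) with ceritinib in LR3. Of the promoter windows of the 6, 5 were available. The E-box was in 1, that of SLC25A36, and neither the CARE nor the FOXO letters were in any.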

How the data were processed

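Total RNA was amplified with a 3' IVT kit, labelled with biotin and hybridised to 8 one-colour arrays, per the labels' protocols. The authors deposited log2 signals per probe set, made with RMA, per the submitters' processing notes, and the RMA software and the arrays normalized together are not given in the sources used here. No further normalization was applied, and precision is set by how few arrays there are. Of 49395 probe sets, 44988 had 1 gene symbol in the platform's probe table. Each gene was represented by its brightest probe set on average, and a gene was tested when it exceeded 5.36 in at least 2 arrays, which kept 10527 genes (58.1%). limma 3.58.1 in R 4.3.3 was fitted over all 8 arrays: line plus agent for the comparisons of lines (3 residual degrees of freedom), and 6 cells of line by inhibitor or none for the responses (2 residual degrees of freedom), with Benjamini-Hochberg adjustment over all genes tested. The fit of line plus agent was tested on simulated data, for LR2 against parental cells only. The response fit, the single-array counts and the motif search were not tested in this way. The members, substrate classes and partner lists were chosen with earlier results of these data known. Named genes were the 8 largest called rises and falls in each comparison that ran the same way in every matched pair of arrays, up to 4 called genes of each class, a fixed list of well-known carriers, and the genes at the cut. Genes named beyond these, among them the remaining called members of a class and those past the 0.5 limit, were chosen after their values were seen. SLC16A1, SLC16A3 and SLC2A3 were not analysed here. Promoter windows came from RefSeq. Alternatives changed the scaling, the probe sets, the floor, the variance model and the agent term, or left out arrays.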

Additional observations from a re-analysis of the deposited data

Results flagged for a closer look

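The search covered only the carriers past the 0.5 limit in parental cells and SLC7A5, SLC3A2, SLC7A11, SLC1A5, SLC38A2 and SLC2A1. For 3 of these genes the inhibitor differences between single arrays had 1 sign in every parental array and the other in a resistant line. That is how they came up, and no difference of the responses between lines was called. The other members were not searched in this way. SLC25A36, a mitochondrial pyrimidine nucleotide carrier, differed by -0.02 with ceritinib in LR3, against 0.64 with either inhibitor in parental cells, a distance of -0.66. In LR2 it differed by 0.50 with crizotinib and 0.22 with ceritinib, the same sign as in parental cells. SLC35G2 differed by 0.06 with ceritinib in LR3, against -0.50 and -0.82 with crizotinib and ceritinib in parental cells, a distance of 0.72, while in LR2 it differed by -0.57 and -0.25. The LR3 values of both genes were smaller than the SD of that array difference over the 203 genes (0.178), so they do not show an opposite response. SLC38A2 differed by 0.07 and 0.04 in LR2 with crizotinib and ceritinib and by 0.17 in LR3 with ceritinib, against -0.20 and -0.25 in parental cells, which put the LR2 response 0.28 and the LR3 response 0.40 (0.395 before rounding) above the parental one. Its resistant-line values also lay within the SD of those array differences (0.264, 0.150 and 0.178), and the LR2 ceritinib array carried a median shift of 0.10 over all genes, larger than its 0.04. limma's interaction terms passed the adjusted threshold for 0 of 203 genes. At an unadjusted p under 0.05 there were 3 genes for LR2 (1.48%, beside 2.38% of all genes tested) and 5 for LR3 (2.46%, beside 4.8%).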

How the results depend on the processing

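Calls between lines depended on the number of arrays and on which probe sets were used, and the cause was not tested beyond the construction of each alternative. Of 89 called results for named genes, 36 stayed called in every alternative run for them, 53 were lost in at least 1, and 1 changed sign: SLC30A1 in LR3 against parental cells, which was 0.17 (0.1692) when probe sets with a cross-hybridization suffix were left out. Called genes named beyond the leading and class lists, such as SLC25A37 in LR2 and SLC25A11 and SLC39A6 in LR3, were not followed singly through the alternatives. The setting without suffixed probe sets left 41 of the 203 genes in the fit and gave 4 calls for LR2, 7 for LR3 and 7 for LR3 against LR2, where 46, 47 and 44 were reported. Of all genes in that fit, 21.3%, 14.8% and 15.1% were called. Without both crizotinib arrays there were 25 calls for LR2 and 28 for LR3, beside 10.9% and 15.3% of all genes tested. Leaving out either crizotinib array alone gave that same fit, because LR3 has none. Leaving out either LR3 array gave 1 and the same fit for LR2 against parental cells. Tallies of alternatives therefore count some fits repeatedly. With no floor, 31 were called for LR3, beside 9.87% of all genes in that fit. Leaving out 1 array at a time gave 21 to 39 calls for LR2 (21 without the untreated LR2 array), 14 to 45 for LR3 (14 without the LR3 ceritinib and 16 without the untreated LR3 array) and 19 to 58 for LR3 against LR2 (19 without the LR3 ceritinib array). Among uncalled values, SLC1A5 in LR3 was 0.00 (0.0033) with no agent term and between -0.23 and 0.09 with 1 array left out, SLC7A11 in LR3 lay between -0.0667 and 0.36, SLC7A5 in LR2 between -0.0813 and 0.0467, and SLC3A2 in LR2 between -0.054 and 0.1247 with 1 array left out. The inhibitor response gave 5 calls with an additive inhibitor term for parental, LR2 and LR3 cells alike, since that term is shared, and 0 calls otherwise. Ceritinib arrays taken alone gave single differences with no test and no count. The labels give no replicate numbers to pair arrays by. The agent term compares lines within an agent. With no agent term there were 32 calls for LR2, 32 for LR3 and 38 for LR3 against LR2, beside 14%, 17.2% and 14.9% of all genes. Array signal near the floor limits SLC2A12, SLC4A7, SLC6A8, SLC4A3, SLC46A3 and SLC35F3.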
